A study of Mus musculus with 6 samples.

Results

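The 10 genes described here encode transcription factors of the distal tubule and collecting duct, the last stretches of the nephron, where salt, water and acid excretion are adjusted. They were taken by name from a table with 1 row per gene: of 23873 rows, 19503 held values, and all 10 names were found once. They are Tfap2a, Tfap2b, Tfcp2l1, Grhl1, Grhl2, Foxi1, Gata3, Elf3, Elf5 and Hmx2. RNA came from whole kidneys of mice 8 weeks old, with 3 libraries in each of 2 groups. The labels call the first group wild type. They give the second, here NICD2_Pax8, as R26NICD2/+pax8cre: a single Rosa26 knock-in of NICD2, the Notch2 intracellular domain, which enters the nucleus and needs no ligand, together with Cre under Pax8, which is active along the tubule epithelium and the collecting duct. A Pax-rtTA driver stands in the title of the series where the labels give Pax8-Cre, and the wild-type libraries carry titles that begin with NICD, and it is not known here whether these kidneys held the allele without the driver. Nothing in the labels ties each library to its own animal, and the p-values therefore reflect only how far these samples spread, which may be technical.

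In the collecting duct, principal cells take up sodium and water and intercalated cells move acid and base. Both arise from shared precursors, and Notch signalling between neighbouring cells is known to favour the principal fate, while Foxi1 is required for the intercalated fate. Tfcp2l1 acts upstream in both cell types and is known to control Jag1, a Notch ligand, in the intercalated cells. Elf5 is restricted to principal cells in the adult kidney, Tfap2b belongs to the distal convoluted tubule, and the grainyhead factors Grhl1 and Grhl2 keep epithelia sealed. Gata3 is needed for the duct from its first outgrowth, and Elf3 is an ETS factor of many simple epithelia.

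Promoter sequences are shown first, because the Notch intracellular domain acts through the DNA-binding protein RBPJ, whose core letters are TGGGAA. Those printed belong to the factors with the largest log2 fold changes, as defined below, among those with a promoter sequence. Sequences are from RefSeq with the build GRCm38.p6, and 9 of the 10 factors matched by symbol (Grhl2 did not), with 13 windows of the 250 bases before a start site. Each line below runs from 5′ to 3′ on the strand of the gene, in lower case, with matches to TGGGAA or its reverse complement TTCCCA in capitals. The Foxi1 window lies at chr11:34208090-34208339 on the minus strand, the Hmx2 window at chr7:131548507-131548756 on the plus strand and the Tfap2a window at chr13:40734921-40735170 on the minus strand. The Elf5 window at chr2:103423818-103424061 on the plus strand and the Elf3 window at chr1:135258569-135258722 on the minus strand were ended before the first exon that GENCODE annotates there, which left 244 and 154 bases.
Foxi1: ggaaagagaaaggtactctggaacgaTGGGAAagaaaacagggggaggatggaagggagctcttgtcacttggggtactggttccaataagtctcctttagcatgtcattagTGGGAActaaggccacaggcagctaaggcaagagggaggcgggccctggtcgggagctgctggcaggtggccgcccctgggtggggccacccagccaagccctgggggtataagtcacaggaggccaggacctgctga
Hmx2: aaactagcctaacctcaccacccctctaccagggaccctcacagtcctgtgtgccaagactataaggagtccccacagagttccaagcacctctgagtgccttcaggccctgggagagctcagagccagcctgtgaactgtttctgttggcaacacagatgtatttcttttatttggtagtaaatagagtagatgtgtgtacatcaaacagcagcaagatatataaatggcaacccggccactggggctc
Elf5: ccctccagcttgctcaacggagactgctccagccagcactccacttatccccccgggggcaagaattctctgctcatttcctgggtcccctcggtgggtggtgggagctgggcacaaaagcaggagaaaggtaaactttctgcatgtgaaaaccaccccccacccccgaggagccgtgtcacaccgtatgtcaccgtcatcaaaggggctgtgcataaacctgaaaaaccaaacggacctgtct
Elf3: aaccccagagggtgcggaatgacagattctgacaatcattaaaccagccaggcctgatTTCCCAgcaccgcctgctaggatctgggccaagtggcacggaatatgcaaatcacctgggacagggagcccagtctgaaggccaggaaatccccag
Tfap2a: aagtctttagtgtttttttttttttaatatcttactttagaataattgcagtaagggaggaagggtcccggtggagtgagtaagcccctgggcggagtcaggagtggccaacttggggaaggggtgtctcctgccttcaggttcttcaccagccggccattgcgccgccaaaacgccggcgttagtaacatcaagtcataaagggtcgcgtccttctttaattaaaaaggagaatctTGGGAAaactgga

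The Foxi1 window held the RBPJ letters at 2 places, the Elf3 and Tfap2a windows printed above at 1 place each, and the Elf5 and Hmx2 windows printed above at 0. Tfap2a, Elf5 and Hmx2 each had another window, not printed, with 0 matches. Grhl1, whose group means differed by a larger fold than those of Tfap2a (5.49 against 4.04), had 0 matches in its windows, not printed. All windows that held the RBPJ letters were thus printed. The printed windows of Tfap2a, Elf3 and Elf5 lie within the gene spans given below. Over all windows of the factors 3 of 13 (23.1%) held them, against 21.6% of 32817 RefSeq windows of the same length, so the share was close to that of all promoters. Both strands were searched in the same way for 5 further sets of letters. The AP-2 letters GCCNNNGGC stood in 4 of the 13 windows (those of Tfcp2l1, Grhl1, Foxi1 and Gata3) against 13.7% of all, the forkhead letters TGTTTNC in 1 against 17.8% and the ETS letters CCGGAA in 1 against 12.0%. The GATA letters AGATAA and the grainyhead letters AACNNGTT were in 0 of the 13, against 9.99% and 3.64% of all. No match overlapped another in these windows. A match is a description of the letters and not of binding.

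Values are FPKM as deposited, fragments scaled to transcript length and library depth. From the step size of low FPKM values, depth came to about 14750000 to 15150000 fragments for wild type and 15900000 to 17600000 for NICD2_Pax8. The test was limma on log2(FPKM + 1) over the 13500 genes that reached 1 FPKM in 3 or more libraries, with Benjamini-Hochberg adjustment over all of them, and "rose" and "fell" are used for an adjusted p under 0.05. Log2 fold changes are on that scale, which understates the change of low genes, and are followed by the SE of limma. The difference was broad: 61.4% of tested genes passed, 45.1% as higher and 16.2% as lower, and the median log2 fold change over all tested genes was 0.32. Median-of-ratios scaling of the libraries brought that median to 0.00, with 54.6% of genes passing, 27.6% higher and 27% lower, so each factor is also given after this scaling. Quantile normalization passed 55%, 28.6% higher and 26.4% lower. Wild-type replicate 1 stood apart, because it held adrenal transcripts: Th, the enzyme that begins catecholamine synthesis, was at 256 FPKM there and listed at 0 in the other 5 libraries. Adipocyte transcripts varied in both groups. The 6 markers listed, mostly Fabp4, summed to 2618, 619 and 125 FPKM in wild type and 48.2, 206 and 86.1 FPKM in NICD2_Pax8.

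Of the 10 factors 6 rose in NICD2_Pax8 kidneys, 2 fell and 2 did not pass, and after median-of-ratios scaling 6 rose and 3 fell. For the 6 that rose and the 2 that fell, all 3 wild-type values lay on the same side of all 3 NICD2_Pax8 values, which held for 49.9% of all tested genes in the higher and 18.8% in the lower direction. Of 1865 tested genes that the authors annotate as transcription factors 60.2% passed, 51.5% as higher and 8.63% as lower, and after that scaling 48.1% passed, 29.8% as higher and 18.3% as lower. All 10 passed the filter on low values, but Elf5 and Grhl1 passed through the NICD2_Pax8 libraries alone and Hmx2 through the wild-type libraries alone, so that these 3 had to differ and the counts are given as a description. The median log2 fold change of the 10 was 1.35, against 0.32 for all tested genes.

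**Figure D1:**
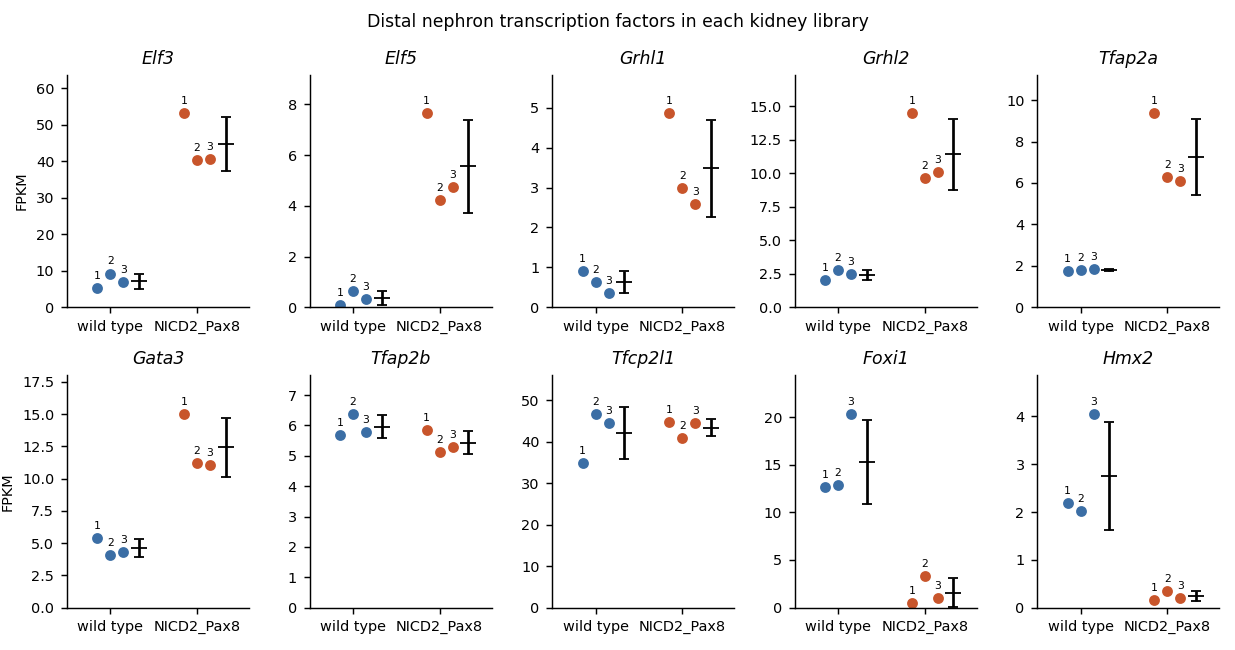
FPKM of each factor (y axis, from 0) in the 3 wild-type libraries (blue) and the 3 NICD2_Pax8 libraries (orange), numbered by replicate, with the group mean and SD in black. The groups are apart for 8 factors and overlap for Tfap2b and Tfcp2l1, and NICD2_Pax8 replicate 1 is the highest library for all 6 factors that rose.

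Both ETS factors rose. Elf3 (gene 13710, chromosome 1, 135253574 to 135259262, minus strand), which drives genes of epithelial barriers and of inflamed epithelium, had 5.19, 9.26 and 7 FPKM in wild type and 53.2, 40.4 and 40.7 FPKM in NICD2_Pax8, given here and below in order of replicate number. The highest wild-type library was still far below the lowest NICD2_Pax8 library, and the mean was 6.26-fold higher (log2 fold change 2.51, SE 0.21, adjusted p = 1.47e-04 by limma; 2.15 after median-of-ratios scaling).

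Elf5 (gene 13711, chromosome 2, 103411693 to 103450989, plus strand), the principal cell factor that contributes to transcription of the water channel gene Aqp2, went from barely detected to clearly expressed. Its values were 0.10, 0.65 and 0.32 FPKM in wild type and 7.65, 4.25 and 4.76 FPKM in NICD2_Pax8. The wild-type values rest on about 4, 23 and 12 fragments, so the base of any fold is uncertain. In mean FPKM the level was 15.6-fold higher, or 26.4-fold without wild-type replicate 2, which held the most (log2 fold change 2.26, SE 0.24, adjusted p = 3.66e-04 by limma; 2.04 after scaling). Aqp2 itself went the other way, with 30.9, 66.9 and 54.3 FPKM in wild type and 1.78, 14.4 and 8.48 FPKM in NICD2_Pax8.

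The grainyhead factors rose from different levels. Grhl2 (gene 252973, chromosome 15, 37231953 to 37363569, plus strand), which maintains junction and transporter genes of the collecting duct epithelium, stood at 2.04, 2.76 and 2.45 FPKM in wild type and 14.5, 9.67 and 10.1 FPKM in NICD2_Pax8. That is a 4.73-fold higher mean (log2 fold change 1.85, SE 0.18, adjusted p = 2.39e-04 by limma; 1.53 after scaling). Its relative Grhl1 (gene 195733, chromosome 12, 24572232 to 24617391, plus strand), known from the epidermis, was at 0.91, 0.63 and 0.36 FPKM in wild type and at 4.86, 2.99 and 2.59 FPKM in NICD2_Pax8. No wild-type library reached 1 FPKM, and the mean was 5.49-fold higher (log2 fold change 1.44, SE 0.23, adjusted p = 0.0017 by limma; 1.22 after scaling). The ratio of Grhl1 to Grhl2 within a library was 0.147 to 0.446 in wild type and 0.256 to 0.335 in NICD2_Pax8, so the ratio overlapped between the groups.

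The AP-2 factors parted. Tfap2a (gene 21418, chromosome 13, 40713802 to 40738238, minus strand), a factor of the medullary collecting duct, was read at 1.74, 1.79 and 1.86 FPKM in wild type and at 9.36, 6.29 and 6.11 FPKM in NICD2_Pax8. Wild type was tight, with a spread of 0.0603 FPKM (SD, n = 3), and the NICD2_Pax8 mean was 4.04-fold higher (log2 fold change 1.54, SE 0.17, adjusted p = 4.05e-04 by limma; 1.25 after scaling). Tfap2b (gene 21419, chromosome 1, 19208908 to 19238845, plus strand), which is needed for the distal convoluted tubule, was at 5.68, 6.39 and 5.80 FPKM in wild type and at 5.86, 5.14 and 5.28 FPKM in NICD2_Pax8. These groups overlapped (log2 fold change -0.11, SE 0.11, adjusted p = 0.386 by limma).

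The call for Tfap2b rested on the scaling. Relative to the bulk of genes it was lower in NICD2_Pax8, at -0.44 on the log2 scale after median-of-ratios scaling (limma SE 0.11, adjusted p = 0.0137), and it passed as lower in the authors' deposited table too (log2 fold change -0.54, q = 0.00222). The ratio of Tfap2a to Tfap2b does not depend on any scaling between libraries. It was 0.306, 0.28 and 0.321 in wild type and 1.6, 1.22 and 1.16 in NICD2_Pax8, so that Tfap2b was the more abundant of the pair in every wild-type library and Tfap2a in every NICD2_Pax8 library.

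Gata3 (gene 14462, chromosome 2, 9857078 to 9887953, minus strand), a factor of the ureteric bud and collecting duct that also serves other lineages, rose least of the 6. It stood at 5.38, 4.06 and 4.34 FPKM in wild type and at 15.04, 11.2 and 11.02 FPKM in NICD2_Pax8, a 2.70-fold higher mean (log2 fold change 1.26, SE 0.16, adjusted p = 6.94e-04 by limma; 0.92 after scaling). Chromaffin cells of the adrenal medulla also express Gata3, and the wild-type library with adrenal transcripts was the highest of its group. Without it the fold was 2.96. Of 9 markers of the adrenal medulla and sympathetic neurons 1, Slc18a1, was tested and fell. Their summed level was 2054 FPKM in that library, 59.2 to 60.8 FPKM in the other wild-type libraries and 7.94 to 11.5 FPKM in NICD2_Pax8. Outside that library the sum was nearly all Slc18a1, and no other marker passed 0.11 FPKM. Slc18a1 stood at 45.1, 60.5 and 59.2 FPKM in wild type, lowest in the library with adrenal transcripts, so outside it the sum does not follow the adrenal medulla. Of 7 genes listed for mesangial cells, another source of Gata3, all were tested, 1 rose and 4 fell. Whether these genes are confined to mesangial cells was not tested. Their sum was 167 to 204 FPKM in wild type and 68.5 to 106 FPKM in NICD2_Pax8. The largest part of it in wild type was Ren1, the renin gene, at 94 to 135 FPKM against 18.4 to 33.2 FPKM. Serpine2 was the marker that rose, and Pdgfrb, at 10.4 to 13.6 against 12.9 to 16.2 FPKM, did not pass. T cells and innate lymphoid cells express Gata3 as well: of 10 markers listed for them 9 had values, 3 were tested (Cd3g, Cd8a and Lck) and all 3 rose, or 2 after median-of-ratios scaling, where Cd3g, whose groups overlap, did not pass. Their summed level was 4.87 to 5.57 FPKM in wild type and 17.2 to 21.6 FPKM in NICD2_Pax8, with Cd3e at 0.2 to 0.7 FPKM against 0.62 to 1.56 FPKM. The part of these cells in the level of Gata3 was not tested.

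Tfcp2l1 (gene 81879, chromosome 1, 118627923 to 118685168, plus strand) was the most abundant of the 10 in wild type. It was at 35.0, 46.8 and 44.5 FPKM in wild type and at 44.7, 40.98 and 44.4 FPKM in NICD2_Pax8, and the groups overlapped (log2 fold change 0.05, SE 0.13, adjusted p = 0.741 by limma). The sign of this value changed with the scaling: it was -0.32 (SE 0.16, adjusted p = 0.134 by limma) after median-of-ratios scaling. Leaving out wild-type replicate 1, its lowest library, together with that scaling gave -0.51 (SE 0.09, adjusted p = 0.00438 by limma), which passed as lower. In the authors' deposited table it did not pass (log2 fold change -0.31, q = 0.175). Jag1, which Tfcp2l1 is known to control, stood at 3.40, 3.62 and 2.69 FPKM in wild type and 73.8, 61.4 and 58.1 FPKM in NICD2_Pax8.

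The factors of intercalated cells fell. Foxi1 (gene 14233, chromosome 11, 34204341 to 34208089, minus strand) stood at 12.7, 12.8 and 20.4 FPKM in wild type and at 0.43, 3.27 and 0.98 FPKM in NICD2_Pax8. The NICD2_Pax8 values rest on about 15, 123 and 38 fragments, and replicate 2 carries most of their mean. The mean was 9.80-fold lower, or 21.7-fold lower without NICD2_Pax8 replicate 2 (log2 fold change -2.80, SE 0.41, adjusted p = 0.00122 by limma; -3.07 after scaling). In bulk kidney, fewer cells of a type and less RNA per cell cannot be told apart.

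Hmx2 (gene 15372, chromosome 7, 131548757 to 131558014, plus strand), a homeobox factor found in intercalated cells, was the lowest of the 10 in NICD2_Pax8. It went from 2.18, 2.02 and 4.06 FPKM in wild type to 0.16, 0.35 and 0.21 FPKM, which rest on about 7, 17 and 11 fragments. The mean was 11.5-fold lower (log2 fold change -1.56, SE 0.22, adjusted p = 0.00109 by limma; -1.74 after scaling). Foxi1 and Hmx2 had the same order of libraries in NICD2_Pax8, with replicate 2 highest and replicate 1 lowest, and in wild type they shared the highest library, replicate 3, but not the lowest. The ratio of Foxi1 to Hmx2 was 5.01 to 6.35 in wild type and 2.69 to 9.34 in NICD2_Pax8, so it overlapped.

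**Figure D2:**
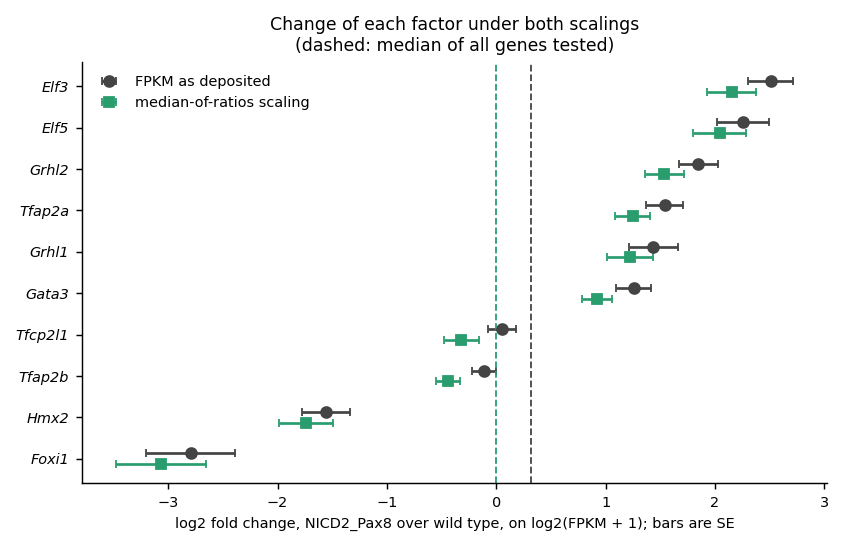
Log2 fold change of each factor (x axis, NICD2_Pax8 over wild type on log2(FPKM + 1), bars are SE) from FPKM as deposited (dark circles) and after median-of-ratios scaling (green squares), with the medians of all tested genes dashed at 0.32 and 0.00. Elf3 is at the top with 2.51 and Foxi1 at the bottom with -2.80, and the sign differs between the scalings for Tfcp2l1.

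The order of the levels changed between the groups. In wild type Tfcp2l1 led with a mean of 42.1 FPKM, followed by Foxi1 at 15.3, Elf3 at 7.15 and Tfap2b at 5.96 FPKM, with overlap only between Elf3 and Tfap2b among these neighbours. Gata3, Hmx2, Grhl2 and Tfap2a came next, from 4.59 to 1.80 FPKM. Here Gata3 overlapped Hmx2, and Hmx2 overlapped Grhl2. Grhl1 at 0.633 and Elf5 at 0.357 FPKM were last and overlapped each other. In NICD2_Pax8 Elf3 at 44.7 and Tfcp2l1 at 43.4 FPKM led and overlapped, Gata3 at 12.4 and Grhl2 at 11.4 FPKM came next and overlapped, and Tfap2a, Elf5 and Tfap2b lay between 7.25 and 5.43 FPKM, with each overlapping the next. Grhl1 at 3.48 and Foxi1 at 1.56 FPKM overlapped, and Hmx2 at 0.24 FPKM was below all of them.

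Set against Tfcp2l1 in the same library, which removes any scaling, the shifts remained. Elf3 was 0.148 to 0.198 of Tfcp2l1 in wild type and 0.915 to 1.19 of it in NICD2_Pax8. For Grhl2 the ratio went from a range of 0.055 to 0.059 to one of 0.228 to 0.324. Gata3 stood at 0.0868 to 0.154 of Tfcp2l1 in wild type and 0.248 to 0.336 in NICD2_Pax8. Foxi1 dropped from 0.274 to 0.457 of Tfcp2l1 in wild type to between 0.00962 and 0.0798 in NICD2_Pax8. Tfap2b to Tfcp2l1 was 0.13 to 0.163 against 0.119 to 0.131, the only ratio of these 5 whose groups overlapped.

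Single NICD2_Pax8 libraries ranked alike across the factors. Replicate 1 was the highest of the 3 for all 6 factors that rose, and it was the highest for 44.5% of the 6059 genes that rose with groups apart. The same library was the lowest for Foxi1 and Hmx2. Replicate 2 was the highest for both factors that fell, as for 49.9% of the 2174 genes that fell with groups apart. The NOTCH2 row, which the file gives in capitals with no position, read 500.5, 521 and 570 FPKM in NICD2_Pax8 against 1.27 to 3.75 FPKM in wild type, so replicate 1 was the lowest of its group there. Proximal tubule markers, 8 genes summed, gave 124, 4643 and 945 FPKM in NICD2_Pax8 against 59525 to 90613 FPKM in wild type. Kap was the largest part of each sum, at 59.9, 4192 and 730 FPKM against 55466 to 84655 FPKM. Lrp2 differed less, at 11.7, 24.2 and 24.5 FPKM against 92.1 to 137 FPKM, as did Cubn. Each of the 8 was lowest in replicate 1, the library with the highest values of the rising factors. The part of this in the ranking was not tested.

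Relatives of these factors in the same families were read next, from a list of 19 genes. Of these, 16 had values and 9 were tested, 8 of which rose, or 6 after median-of-ratios scaling, and Gata6, at 5.55 FPKM in wild-type replicate 1 and 0.93 to 1.53 FPKM elsewhere, did not pass. The share of all tested genes that rose was 45.1%, or 27.6% after that scaling. Ehf, the ETS factor that lies next to Elf5 on chromosome 2, at 108 kb on the other strand, stood at 3.45, 6.59 and 5.36 FPKM in wild type and 69.9, 38.7 and 41.2 FPKM in NICD2_Pax8 (log2 fold change 3.04, SE 0.28, adjusted p = 2.17e-04 by limma). Its highest library was again NICD2_Pax8 replicate 1. Cat, the catalase gene 2.92 kb beyond the other end of Elf5, was at 518 to 619 FPKM in wild type and 108 to 186 FPKM in NICD2_Pax8, so the neighbours of Elf5 went opposite ways. Cat, and the neighbours of Hmx2 below, were named after their values were seen.

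Grhl3, the remaining grainyhead gene, was listed at 0, 0.31 and 0 FPKM in wild type and at 7.11, 3.52 and 4.86 FPKM in NICD2_Pax8 (adjusted p = 2.65e-04 by limma). Grhl3, like Grhl1, passed the filter on low values through the NICD2_Pax8 libraries alone. The related CP2 factors Tfcp2 and Ubp1 moved less, from 6.27 to 6.74 up to 9.81 to 10.2 FPKM and from 23.1 to 27.1 up to 31.8 to 37.1 FPKM, and after median-of-ratios scaling neither passed. Ubp1 also did not pass without wild-type replicate 3 (adjusted p = 0.0558 by limma). Gata2, at 8.04 to 10.5 FPKM in wild type and 24.2 to 26.3 FPKM in NICD2_Pax8, rose by 1.35 on the log2 scale (limma SE 0.12, adjusted p = 1.74e-04), beside 1.26 for Gata3. The further ETS factor Elf4 rose from 1.25 to 2.22 FPKM to between 7.08 and 7.32 FPKM. Elf1 and Elf2 rose as well, by 0.85 and 0.82 on the log2 scale, or 0.49 and 0.46 after scaling, where both still passed. Other members of the AP-2 family were hardly present, with Tfap2c and Tfap2e at most at 0.07 FPKM in any library. Hmx3, 2.73 kb from Hmx2 on the same strand, stood at 0.05 to 0.12 FPKM in all 6 libraries, and Bub3, 2.35 kb on the other side, at 20.3 to 26.2 FPKM in wild type and 46.2 to 51.2 FPKM in NICD2_Pax8.

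**Figure D3:**
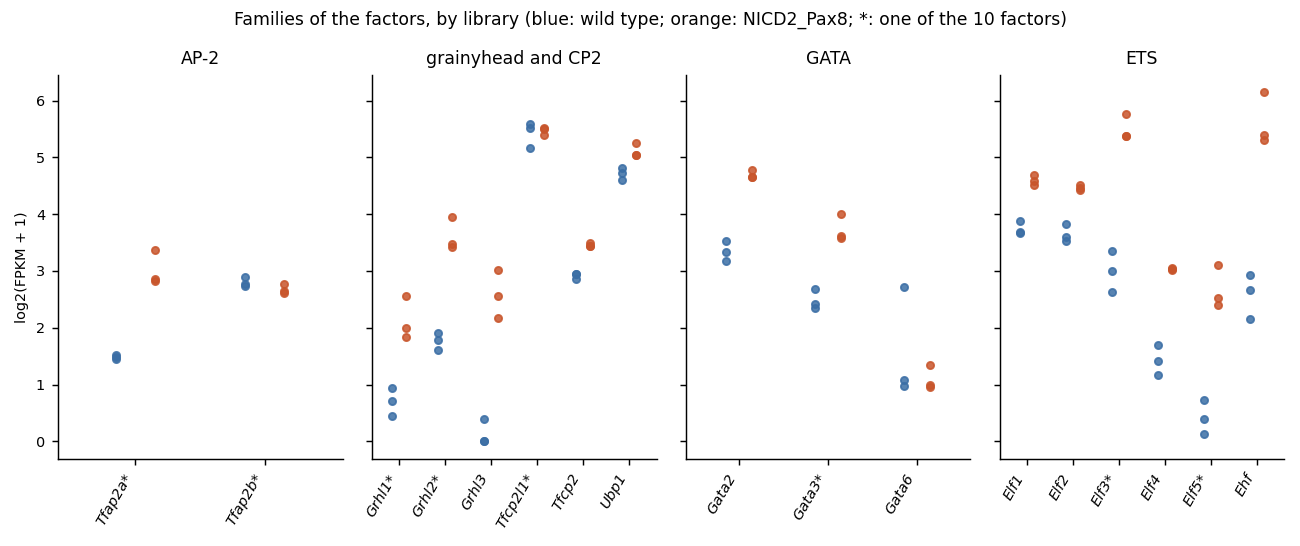
Log2(FPKM + 1) (y axis) of genes of the AP-2, grainyhead and CP2, GATA and ETS families in each library, with wild type in blue, NICD2_Pax8 in orange and an asterisk at those of the 10 factors that belong to these families, all but Foxi1 and Hmx2. Every ETS and grainyhead gene shown sits higher in each NICD2_Pax8 library than in any wild-type library, as do Tfap2a, Tfcp2, Ubp1, Gata2 and Gata3. The points of Tfap2b, Tfcp2l1 and Gata6 overlap.

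Other transcription factors of distal and collecting duct epithelium moved both ways. Of 23 listed, 21 were tested, 9 rose, 3 fell and 9 did not pass, and after median-of-ratios scaling 5 rose and 9 fell. Over all tested genes 45.1% rose and 16.2% fell, and after that scaling 27.6% and 27%. The counts before scaling were thus close to the shares of all genes. The number that fell depended on single libraries. With the filter set on all 6 libraries it was 1 without wild-type replicate 2 or replicate 3 (10 and 9 rising), 6 without wild-type replicate 1 (8 rising) and 2 without any 1 of the NICD2_Pax8 libraries. Setting the filter on the 5 remaining libraries lowered each of the wild-type counts by 1, since it removed Dmrt2. Emx2, a homeobox factor needed for the ureteric bud, stood at 5.77 to 6.67 FPKM in wild type and 23.8 to 37.0 FPKM in NICD2_Pax8 (log2 fold change 2.09, SE 0.17, adjusted p = 1.31e-04 by limma). Hoxb7, a homeobox gene of the duct lineage, went from 11.8 to 14.0 FPKM up to 32.6 to 40.7 FPKM. Pax8, whose promoter names the driver, was at 35.9 to 46.7 FPKM against 88.6 to 101 FPKM. Among those that fell was Dmrt2, a factor of acid-secreting intercalated cells, at 1.77 to 2.10 FPKM in wild type and 0.64 to 0.93 FPKM in NICD2_Pax8, which passed the filter through wild type alone. Irx3 and Ppargc1a, the latter a regulator of mitochondrial genes, fell by 0.47 and 0.35 on the log2 scale, and these calls were lost in 5 and 4 of the 6 fits with 1 library left out (adjusted p up to 0.0875 and 0.0699 by limma). Irx3 still passed without NICD2_Pax8 replicate 2, and Ppargc1a without NICD2_Pax8 replicate 1 or wild-type replicate 1.

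Genes that depend on Foxi1 or mark intercalated cells fell with it. Of 15 listed, 14 were tested, 12 fell, 1 rose and 1 did not pass, with the same counts after median-of-ratios scaling and a median log2 fold change of -2.33. Among all tested genes 16.2% fell and 45.1% rose, or 27% and 27.6% after that scaling. The proton pump subunit gene Atp6v0d2 was at 16.1 to 20.9 FPKM in wild type and 1.39 to 2.09 FPKM in NICD2_Pax8 (log2 fold change -2.80, SE 0.15, adjusted p = 4.52e-05 by limma). The subunits Atp6v1g3 and Atp6v1c2 were at 11.6 to 18.5 and 16.1 to 21.9 FPKM against 0.4 to 1.08 and 0.5 to 1.55 FPKM. Atp6v0a4, the most abundant of the list and also made by the proximal tubule, was at 72.0 to 106 FPKM against 69.2 to 118 FPKM (adjusted p = 0.858 by limma). The part of the proximal tubule, whose 8 markers all fell, in this level was not tested. Slc4a1, the exchanger of acid-secreting cells, was at 4.27 to 8.94 FPKM against 0.27 to 1.2 FPKM, and Slc26a4, that of base-secreting cells, at 12.4 to 19.2 against 0.2 to 1.57 FPKM, so markers of both kinds of intercalated cell fell, these 2 having been chosen after their values were seen. The gene of this list that rose was Jag1, given above. In 11 of the 12 genes that fell, NICD2_Pax8 replicate 2 was the highest of its group, the library in which Foxi1 was highest too.

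Principal cell genes were split. Of 14 tested 5 rose, 4 fell and 5 did not pass, and after scaling 5 rose and 7 fell. The share that passed before scaling was close to the 61.4% of all tested genes, of which 45.1% rose and 16.2% fell. Kcne1, a potassium channel subunit, stood at 5.66 to 5.81 FPKM in wild type and 33.5 to 40.3 FPKM in NICD2_Pax8, and Scnn1g, a subunit of the sodium channel, at 12.7 to 18.2 against 42.3 to 49.1 FPKM. The fallers included Aqp2, given above, Aqp3 at 20.4 to 34.9 against 1.05 to 6.27 FPKM and the potassium channel gene Kcnj1 at 72.7 to 80.0 against 46.3 to 50.6 FPKM. Hsd11b2, which protects the mineralocorticoid receptor from glucocorticoids, was the most abundant, at 82.7 to 89.1 against 23.4 to 66.8 FPKM (adjusted p = 0.0831 by limma; 0.0347 after scaling, lower). Elf5 rose while Aqp2 fell, and Avpr2, the vasopressin receptor gene, stood at 6.97 to 7.55 against 6.45 to 7.36 FPKM.

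Genes of the distal convoluted and connecting tubule, where Tfap2b acts, mostly fell: of 14 tested 10 fell, 1 rose and 3 did not pass, and after scaling 11 fell. The share of all tested genes that fell was 16.2%, or 27% after scaling. Slc12a3, the salt cotransporter, was at 215 to 244 FPKM in wild type and 25.6 to 40.1 FPKM in NICD2_Pax8 (log2 fold change -2.80, SE 0.17, adjusted p = 6.00e-05 by limma). The calcium-binding proteins S100g and Calb1 were at 1192 to 1936 and 128 to 213 FPKM against 170.3 to 320.3 and 5.14 to 17.1 FPKM. Pvalb, another of these proteins, was at 16.9 to 17.5 FPKM in wild type and listed at 0, 1.47 and 0 FPKM in NICD2_Pax8. The kinase gene Wnk4 was the one that rose, from 34.4 to 49.0 FPKM to 85.5 to 103 FPKM.

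Barrier genes that depend on Grhl2 in epithelia rose for the most part. Of 16 tested 11 rose, 1 fell and 4 did not pass, with a median log2 fold change of 1.29, and after scaling 10 rose and 4 fell. Without wild-type replicate 1 it was also 10 and 4. By comparison, 45.1% of all tested genes rose and 16.2% fell, or 27.6% and 27% after scaling. Cldn4, a tight junction claudin known as a target of Grhl2 in the collecting duct, was at 3.06 to 6.25 FPKM in wild type and 30.8 to 51.4 FPKM in NICD2_Pax8 (log2 fold change 2.87, SE 0.27, adjusted p = 2.22e-04 by limma). Cldn7 was at 8.24 to 12.8 against 62.3 to 82.3 FPKM and Cdh1, encoding E-cadherin, at 26.6 to 35.0 against 117 to 145 FPKM. Spint2, a protease inhibitor and the most abundant of the list, was at 124 to 179 against 316 to 348 FPKM. Ovol1, a zinc finger repressor, was the gene that fell, from 3.86 to 5.65 FPKM to between 1.09 and 1.63 FPKM. In 10 of the 11 genes that rose, NICD2_Pax8 replicate 1 was the highest of its group, as it was for Grhl2.

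**Figure D4:**
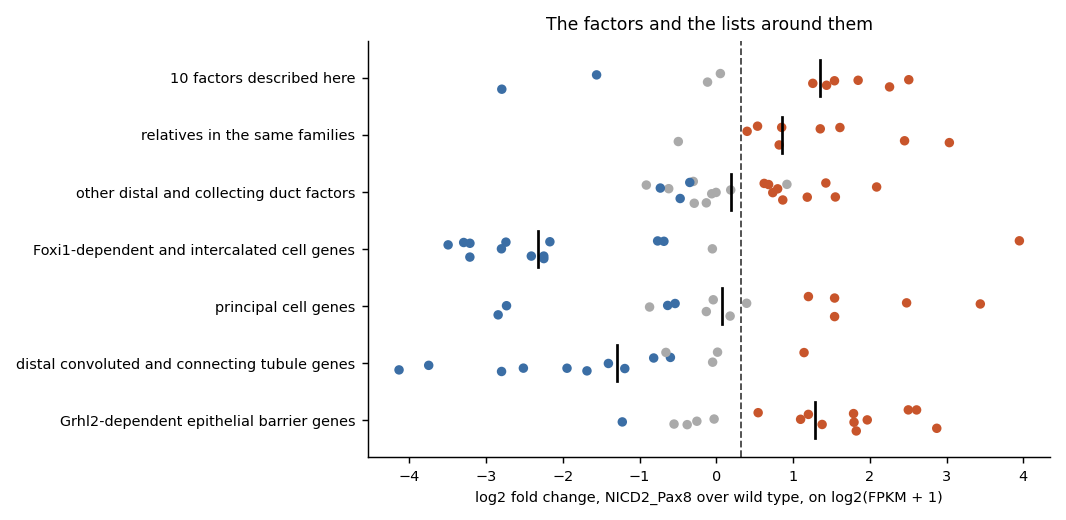
Log2 fold change (x axis, NICD2_Pax8 over wild type on log2(FPKM + 1)) of each tested gene in the 7 lists, with genes that rose in orange, genes that fell in blue and the others in grey. Black bars are list medians, -2.33 for the genes around Foxi1 and 1.29 for the barrier genes, and the dashed line is the median of all tested genes, 0.32.

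For each factor the gene most like it among 96 other tested genes of these lists was found by the Euclidean distance of log2(FPKM + 1) values, centred on their mean over the 6 libraries. Grhl2 was nearest to Cdh1 at a distance of 0.25, Elf3 to Cldn7 at 0.26, Gata3 to Gata2 at 0.27 and Elf5 to Grhl3 at 0.35. Tfap2a and Grhl1 were both nearest to St6gal1, a sialyltransferase of the duct, at 0.32 each. Foxi1 was nearest to Insrr, a receptor that senses alkaline fluid, at 0.72 and Hmx2 to Slc8a1, a sodium-calcium exchanger, at 0.49. Tfap2b was nearest to Avpr2 at 0.14 and Tfcp2l1 to Esrp2, a splicing factor of epithelia, at 0.24. All these distances share the same 6 libraries and mostly follow the difference between the groups.

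Urothelium of the renal pelvis also expresses Elf3, Gata3, Ehf and Grhl3. Of 10 urothelial markers 8 were tested, 2 rose and 6 did not pass, and their summed level was 3.3 to 32.2 FPKM in wild type and 48.9 to 67.9 FPKM in NICD2_Pax8. Upk1a and Krt20, the markers that rose, were at 0.73 to 4.56 and 0.22 to 1.08 FPKM against 36.6 to 37.5 and 5.90 to 13.8 FPKM. Upk1a alone made up most of the sum in each NICD2_Pax8 library, so the sum mainly follows that gene. The uroplakin Upk2 was listed at 0.09, 3.76 and 0 FPKM in wild type and at 1.28, 3.26 and 0.7 FPKM in NICD2_Pax8, and Krt5 at 0.03, 1.6 and 0 against 2.61, 3.56 and 0.69 FPKM, so both overlapped between the groups. Wild-type replicate 2, which held the most Upk2 of its group, was the highest wild-type library for Elf3, Ehf and Grhl3 and the lowest for Gata3. The part of urothelium in the levels of these factors was not tested. General markers of kidney epithelium moved both ways, with Epcam at 16.9 to 35.1 against 84.3 to 109 FPKM and Cdh16 at 291 to 413 against 137 to 211 FPKM.

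In the authors' deposited table, made with its own scaling, 21.3% of 19439 genes with a q-value passed as higher and 21.5% as lower at a q of 0.05, 42.8% in all. By that table the 6 factors that rose here also passed as higher, from Gata3 with a log2 fold change of 1.08 (q = 1.44e-07) to Elf5 with 3.39 (q = 2.66e-08). The authors' deposited table gave Foxi1 a log2 fold change of -3.42 (q = 1.25e-07) and Hmx2 one of -3.73 (q = 5.04e-12). Those 2 therefore passed as lower there, together with Tfap2b.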

How the data were processed

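The authors deposited FPKM per gene and library; the FPKM columns are named so per the file headers, and the headers name no further scaling. The log2 fold changes and the p-values and q-values of the group comparison in the authors' deposited table come from DESeq2 per the file headers; those of single pairs of libraries were not used. The submitters' processing notes list Bowtie 0.12.2 as tool and mm8 as genome. The deposited positions follow a later build: 22002 gene identifiers were found in RefSeq GRCm38.p6, and for 19404 of them (88.2%) start and end were identical, so coordinates are given as GRCm38. How fragments were counted is not given in the sources used here.

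The 4370 rows without values were left out. FPKM with a pseudocount of 1 were log2-transformed and tested with limma 3.58.1 with a mean-variance trend (R 4.3.3), two-sided, on genotype alone, for genes that reached 1 FPKM in 3 or more libraries. The test was checked on simulated data. Spreads of FPKM are SD (n = 3), and a fold is the ratio of the group means. Depth was estimated from genes with 1 transcript of low FPKM, of whose values 71.5% to 78.9% lay within 0.15 of a whole number of fragments; fragment numbers use the longest transcript and are approximate. The 10 factors, the lists and the letters searched in promoters were chosen with earlier results of these data known. From each list the text names up to 3 genes a direction with the smallest adjusted p and groups apart, and the most abundant gene, except that some genes the rule picks are not reported here; others were chosen after their values were seen. Alternatives were pseudocounts of 0.1 and 5, no filter, a filter of 10 FPKM, 3 scalings, the replicate number as a block, no trend, each library left out, and stricter thresholds.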

Additional observations from a re-analysis of the deposited data

How the results depend on the processing

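The 8 calls among the factors kept their direction and their side of the threshold under every alternative in which the factor was tested, with log2 fold changes of 1.91 to 2.69 for Elf3, 0.97 to 3.78 for Elf5, 1.14 to 2.18 for Grhl2, 0.58 to 2.31 for Grhl1, 0.84 to 1.93 for Tfap2a, 0.86 to 1.41 for Gata3, -3.59 to -1.63 for Foxi1 and -3.04 to -0.56 for Hmx2. Elf5, Grhl1 and Hmx2 passed the filter through 1 group alone and had to differ, so their part in this is a description. Tfap2b passed as lower under 4 alternatives, all of them scalings: median-of-ratios (-0.44), the same without wild-type replicate 1 (-0.53), quantile normalization (-0.52) and upper quartile (-0.36). Tfcp2l1 changed sign with median-of-ratios scaling (-0.32), the same without wild-type replicate 1 (-0.51), quantile normalization (-0.091), upper quartile scaling (-0.23) and without wild-type replicate 1 alone (-0.072, also with the filter set on all 6 libraries); with 1 library left out it lay between -0.072 and 0.133. The cause was not tested. Leaving out 1 library left 6 to 7 of the factors called, because the filter then removed 1 or 2 of Elf5, Grhl1 and Hmx2. With the filter set on all 6 libraries, an alternative chosen after seeing the data, all 8 were called each time. For Elf5, Grhl1 and Hmx2 that result is likewise a description. A filter of 10 FPKM left 4 factors tested and 3 called.

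Among all tested genes 8285 were called, 73.6% of them higher; with median-of-ratios scaling 50.6% of 7367 were higher. The count was 5181 with the filter of 10 FPKM, which tests fewer genes, 3436 when a log2 fold change of 1 in either direction was also required, and 6454 to 8706 with 1 library left out (6982 to 8937 with the filter set on all 6 libraries). Replicate numbers are shared between the groups, but the numbers did not pair the samples: deviations from the group means correlated at 0.0951, -0.0498 and 0.0056 for numbers 1 to 3 across 13500 genes, and 1 of 3 wild-type libraries correlated best with its own number. With the replicate number as a block 7982 genes and 8 factors were called. At 15 to 18 fragments per FPKM and kb, the levels of Elf5 and Grhl1 in wild type and of Hmx2 in NICD2_Pax8 are limited by counting error.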
